A study of Mus musculus with 4 samples.

Results

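High GC promoters were taken as the transcription start sites (TSSs) of protein-coding genes whose surrounding 2 kb window held 65% or more G and C in the mouse genome build mm9. Each gene of GENCODE vM1 contributed 1 TSS, chosen by the highest sum of reads over the pair of libraries, and 569 of 22367 promoters met the rule. The starts were thus selected on their reads and the members on their base composition, so neither GC content nor the total of reads at the chosen start is a finding here.

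The reads came from native chromatin immunoprecipitation sequencing (ChIP-seq) of histone H3 lysine 4 (H3K4) in B cells of mouse spleen, 1 library from PA1-KO cells and 1 from PA1-WT cells. The study asked what PA1 does for histone marks and for immunoglobulin class switching. PA1 is a partner of PTIP, and both proteins also belong to the MLL3/MLL4 complex, which methylates H3K4. Both groups were B cells from mice aged 6 to 14 weeks, purified by removing CD43-positive cells and grown for 2 days with LPS (25 µg/ml) plus either an IgD antibody on dextran (2.5 ng/ml) or IL4 (5 ng/ml). The labels of these 2 libraries do not say which of those additions was used, which methylation state of H3K4 was precipitated, which part of PA1 was deleted or in which cells. Each genotype has 1 library, so no difference below has a replicate check, no p-value was computed, and every interval covers counting error only. Of the 4 samples, the other 2 carry labels of LPS with dextran and are not analysed here.

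CpG islands are stretches of GC-rich DNA in which the dinucleotide CG is kept unmethylated, and most housekeeping genes and many developmental regulators start within them. Proteins with a CXXC zinc finger bind unmethylated CpG and bring H3K4 methyltransferases, so nucleosomes at CpG islands of active genes carry H3K4 methylation, usually on either side of a gap at the TSS where the transcription machinery sits. Islands of silent developmental genes are held by Polycomb complexes and often carry low H3K4 methylation as well.

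The sequences below are the 251 bases that end at the TSS of 5 members, read from the mm9 assembly on the strand of the gene, with every CpG in capitals. They show the range of what the rule collects: Sap30l has the most reads (chr11:57614889-57615139, plus strand), Hipk2 one of the highest lower bounds of the knockout over wild-type ratio (chr6:38825816-38826066, minus strand), Ncs1 the lowest upper bound of that ratio (chr2:31101436-31101686, plus strand), Samd1 the highest GC content (chr8:86521321-86521571, plus strand) and Hs3st4 no read although its window is mappable (chr7:131126133-131126383, plus strand).
Sap30l: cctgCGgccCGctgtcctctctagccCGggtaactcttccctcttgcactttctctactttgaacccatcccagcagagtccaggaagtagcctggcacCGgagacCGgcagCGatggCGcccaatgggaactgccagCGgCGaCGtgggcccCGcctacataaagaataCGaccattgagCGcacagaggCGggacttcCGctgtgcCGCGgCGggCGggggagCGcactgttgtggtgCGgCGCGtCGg
Hipk2: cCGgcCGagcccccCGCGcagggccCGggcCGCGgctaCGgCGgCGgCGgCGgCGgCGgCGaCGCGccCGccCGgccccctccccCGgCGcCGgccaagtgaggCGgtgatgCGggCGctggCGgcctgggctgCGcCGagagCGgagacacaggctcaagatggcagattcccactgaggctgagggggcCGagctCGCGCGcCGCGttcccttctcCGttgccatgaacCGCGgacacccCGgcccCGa
Ncs1: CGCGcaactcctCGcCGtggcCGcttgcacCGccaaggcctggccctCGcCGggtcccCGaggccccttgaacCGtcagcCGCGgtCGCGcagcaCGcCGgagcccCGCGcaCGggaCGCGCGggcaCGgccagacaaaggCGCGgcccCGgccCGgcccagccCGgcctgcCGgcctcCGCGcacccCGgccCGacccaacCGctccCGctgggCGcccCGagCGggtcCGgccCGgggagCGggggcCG
Samd1: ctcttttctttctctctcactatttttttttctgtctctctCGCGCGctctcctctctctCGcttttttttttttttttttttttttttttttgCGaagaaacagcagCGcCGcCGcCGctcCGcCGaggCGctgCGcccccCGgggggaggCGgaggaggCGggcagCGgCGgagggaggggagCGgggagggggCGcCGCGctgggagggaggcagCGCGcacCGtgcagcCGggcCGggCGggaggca
Hs3st4: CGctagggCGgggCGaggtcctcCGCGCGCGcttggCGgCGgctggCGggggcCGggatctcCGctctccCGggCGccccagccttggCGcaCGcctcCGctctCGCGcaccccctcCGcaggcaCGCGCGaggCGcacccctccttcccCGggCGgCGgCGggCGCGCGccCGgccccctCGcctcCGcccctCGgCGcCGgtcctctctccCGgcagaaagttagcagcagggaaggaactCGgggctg

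The stretches hold 24 CpGs in Sap30l, 40 in Hipk2, 42 in Ncs1, 28 in Samd1 and 39 in Hs3st4. Hs3st4, without a read, thus has more CpGs there than Sap30l, the member with the most reads. Samd1 has the highest GC content over its 2 kb window, 77.0%, but its printed stretch has the lowest of those shown. That stretch is at 63.7% GC, against 65.3% in Sap30l and 82.5% in Ncs1. Over the 250 bases before and 50 bases after the TSS, marked members held a median of 39.0 CpGs and unmarked members 38.5, against 23.0 in the other marked promoters and 14.0 in all promoters. The letters GGGCGG, which SP and KLF factors bind, were found on either strand of that 300 bp window in 87.9% of members, against 45.9% of all promoters. The run CGCGCG was found in 51.3% of members, against 16.0% of all promoters. CCGGAAG, the core that ETS factors bind, was found in 5.8% of members, against 11.4% of all promoters. Within the members it was found in 7.06% of the marked and 2.08% of the unmarked, and in 19.2% of the other marked promoters. CCAAT was found in 20.9% of members, against 36.0% of all promoters, and TATAAA in 2.11%, against 12.2%. CACGTG, an E-box, was found in 7.03% of members and 7.66% of all promoters. GGGCGG and CGCGCG are made of G and C alone, and CCAAT and TATAAA mostly of A and T. The windows were chosen for GC content, so the shares of these words cannot be told apart from the rule.

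PA1 itself, annotated as 2900092E17Rik, starts at position 134159998 of chromosome 7 (minus strand) and is no member at 56.2% GC. Its promoter had 114 knockout and 261 wild-type reads, with a ratio of 0.498 (0.396 to 0.624). Since the labels do not say which part was deleted, this does not check the genotype. There were 5260401 knockout reads and 5539549 wild-type reads, and no position and strand occurred more than once within a file, so the densest member window filled at most 10.6% of its positions in 1 library.

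Most high GC promoters carried the mark, but none of them was among the promoters with the most reads within 1 kb of the TSS. Of the 569 members, 425 had 50 or more reads within 1 kb of the TSS, which is 74.7% (95% exact binomial interval 70.9 to 78.2), against 11761 of 21798 other promoters, or 54.0% (53.3 to 54.6). With a minimum of 25 reads in a single library, the marked members were 70.7% in the knockout library and 78.0% in the wild-type library, against 52.8% and 54.8% of other promoters. The marked share went up with GC content over the lower classes and levelled off at the top. It was 9.62% below 45% GC, 49.9% at 45 to 50%, 68.9% at 50 to 55%, 77.1% at 55 to 60%, 79.3% at 60 to 65%, 75.5% at 65 to 70% and 69.9% at 70% or more. The last class has 83 promoters and its interval, 58.8 to 79.5, overlaps those of the 4 classes before it. Among promoters in which 90% or more of 25-base words occur once in the genome, 75.1% of members were marked, against 63.9% of others.

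The marked members had a median of 324 reads (quartiles 167 and 443), against 467 (287 and 626) for other marked promoters. Their highest value was 757 reads, so 0 members reached 800 reads, against 963 other promoters or 8.19% of the other marked ones. The median fell with GC content within the members too, with 333 reads at 65 to 70% GC and 246 at 70% or more. These totals cover only reads within 1 kb of the TSS. From 1 to 2 kb the marked members held more reads, 11.6 per 100 bp against 6.19 in other marked promoters. Members with more CpG for their base composition were marked more often. The marked share was 63.0% of 73 members with an observed over expected CpG ratio under 0.7, 67.5% of 154 at 0.7 to 0.8, 74.5% of 192 at 0.8 to 0.9 and 88.0% of 150 at 0.9 or more.

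**Figure D1:**
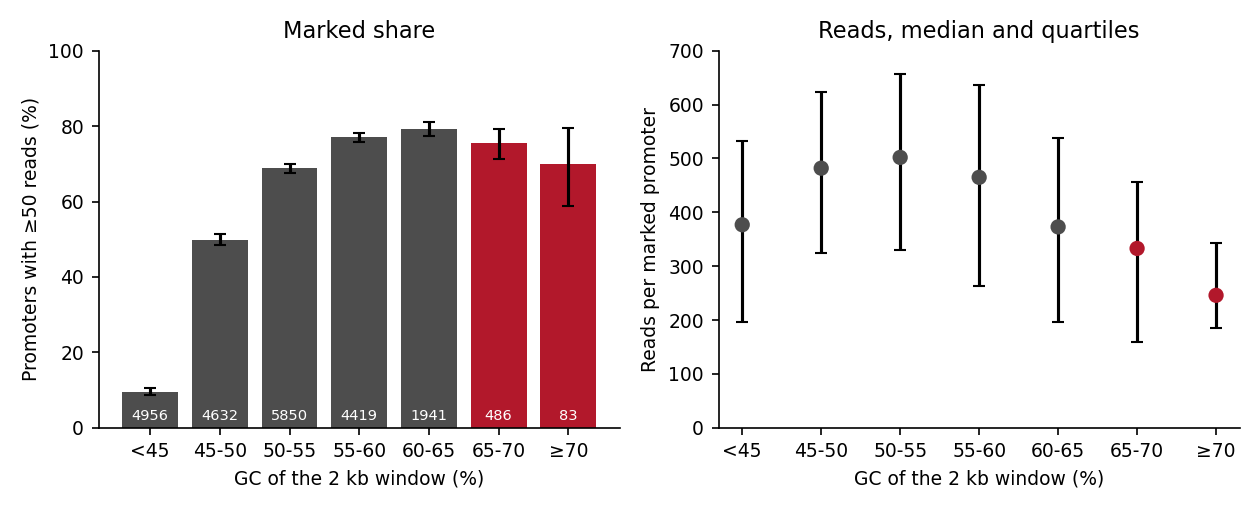
Marked share (left, percent of promoters with 50 or more reads, with 95% exact binomial intervals and the number of promoters in each bar) and reads per marked promoter (right, median and quartiles) by GC content of the 2 kb window; high GC classes are red. The share is 75.5% and 69.9% in the red classes, against 79.3% in the class before them. The median reads within 1 kb of the TSS are the lowest of all in the red classes, 333 and 246.

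Sap30l, which encodes a relative of the SAP30 subunit of the SIN3 histone deacetylase complex, had 333 knockout and 424 wild-type reads. Ddx6, an RNA helicase of processing bodies, had 339 and 393 reads. Hp1bp3, a heterochromatin protein, had 306 and 356, Tada2b, an adaptor of histone acetyltransferase complexes, 293 and 365, Limd2 311 and 398, and Git1, which acts on ARF GTPases, 308 and 349. Rxrb (286 and 379 reads), a retinoid X receptor, and Slc39a7 (275 and 380), a zinc transporter, start from opposite strands of chromosome 17 at positions 34168757 and 34168593, so both windows count nearly the same reads. Altogether 70 members share their window with another gene's TSS. Git1 was even between the libraries after scaling (ratio 1.01), and the other 7 named here lay between 0.826 and 0.984.

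The unmarked members were not empty. Of the 144, 98 had 10 to 49 reads, 39 had 1 to 9 and 7 had none, with a median of 18 reads, against 2 for the 10037 other unmarked promoters. Of the 7 without reads, 4 are entries named Flg, and these with Zxdb and Nudt10 have at most 14.0% unique 25-base words. Hs3st4, which encodes a heparan sulfate sulfotransferase, is the exception, with 99.1% unique words. Irx5, a homeobox factor, had 17 knockout and 32 wild-type reads, Caskin1, a synaptic scaffold protein, 12 and 37, and Nptxr, a neuronal pentraxin receptor, 16 and 32, just under the threshold of 50 in the sum. Just over it were Adcy5, an adenylyl cyclase, with 20 and 30, Grip1, a glutamate receptor scaffold, with 12 and 38, and Gpc1, a heparan sulfate proteoglycan, with 18 and 33. At the GC threshold, Efnb2 (104 and 161 reads), Hdac7 (170 and 212) and Ctdsp1 (184 and 212) lay just inside, and Sept7 (233 and 308), Rmnd5a (185 and 233) and Trim27 (202 and 281) just outside, all at 65% GC when rounded.

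As a check of the tissue at any GC content, 48 of 48 B cell genes were marked, against 4 of 16 T and NK cell markers and 3 of 13 myeloid markers. Of the erythroid, stromal and epithelial markers 7 of 16 were marked, so the mark alone does not set B cell genes apart. Among the members, marked counts differed by gene list. Of the 10 high GC promoters among homeobox developmental regulators 1 was marked, Pbx3, with 85 knockout and 142 wild-type reads. Pou3f1 had 14 and 26 reads, Hoxa13 15 and 12, Pitx1 1 and 5, and Irx1 0 and 1. Of 15 among other developmental transcription factors 5 were marked. Foxd2 had 162 and 208 reads, Sox12 98 and 120, Cebpa, a myeloid regulator, 57 and 92, Cebpb 29 and 65, and Sall3 was the other. Sox11 had 0 and 1 read and Gli3 3 and 2. Of 12 among secreted ligands 2 were marked, Fgf18 (40 and 58 reads) and Igf2 (24 and 29), while Jag2, a Notch ligand, had 15 and 24 and Wnt7b 2 and 6. Of 13 among ion channels 2 were marked, Kcng3 (58 and 103) and Cacna1g (15 and 42), both of them voltage-gated. All 4 receptors of developmental signals were marked, Acvr2b, Fgfrl1, Fgfr3 and Fgfr2, with totals of 173, 131, 92 and 53 reads. Over all GC contents the same lists were marked in 26.9% of homeobox promoters, 34.9% of other developmental factors, 35.4% of ligands, 40.8% of ion channels and 75% of receptors, against 54.5% of all promoters.

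The high GC promoters in the chromatin, B cell and activation lists were all marked, as were 98.8% to 100% of these lists at any GC content, against 74.7% of all members. Mll3, the H3K4 methyltransferase whose complex holds PA1, had 140 knockout and 195 wild-type reads at 73.3% GC. Mll1, another H3K4 methyltransferase, had 233 and 286 reads, Setd1b, of the SET1 family, 130 and 175, and Kdm2a, a CXXC protein that binds CpG islands, 141 and 192. The Polycomb genes Yaf2, Cbx2 and Rybp had 148 and 198, 106 and 153, and 67 and 102 reads. Foxo1, a transcription factor B cells need, had 241 and 294, and Vav2, an exchange factor in B cell receptor signalling, 106 and 223. The 5 members of the activation and cytokine list were Socs3 with 197 and 315 reads, Bbc3 with 182 and 276, Socs1 with 141 and 217, Socs7 with 130 and 153, and Egr1, an early response gene, with 138 in the knockout of 337 in both. Of the cell cycle genes, Ccne1, which encodes cyclin E, had 105 and 180, and Cdkn1c, an imprinted inhibitor of cyclin-dependent kinases, was unmarked with 18 and 21. Actg1, a cytoplasmic actin, had 195 and 249 in a window with 81.1% unique words. No gene of class switch recombination and DNA repair was a member.

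The reads at high GC promoters with 200 or more reads lay far from the TSS. Summed over the 425 marked members, the 5′ ends of reads, moved 75 bp into the fragment, peaked at 20.2 reads per 100 bp and promoter between 900 and 801 bp before the TSS and at 26.6 reads between 900 and 999 bp after it. The lowest bin, 100 to 1 bp before the TSS, held 4.2 reads, which is 17.9% of the mean of the peaks. Other marked promoters peaked in the 100 bp bins that begin 300 bp before and 400 bp after the TSS, and their lowest bin, the same one, held 36.4% of the mean peak. The peaks were thus 1800 bp apart in members and 700 bp apart in others. At 400 to 800 reads, the highest level that members reach, the peaks of 134 members were 1700 bp apart with a trough at 15.3% of the mean peak, against 700 bp and 32.4% for 6138 other promoters. At 50 to 100 reads the members' peaks were 700 bp apart and the trough was at 48.1%, against 200 bp and 73.6%. In each library alone the trough of the members was at 14.9% in the knockout and 20.2% in the wild type, against 33.7% and 38.4% for others.

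**Figure D2:**
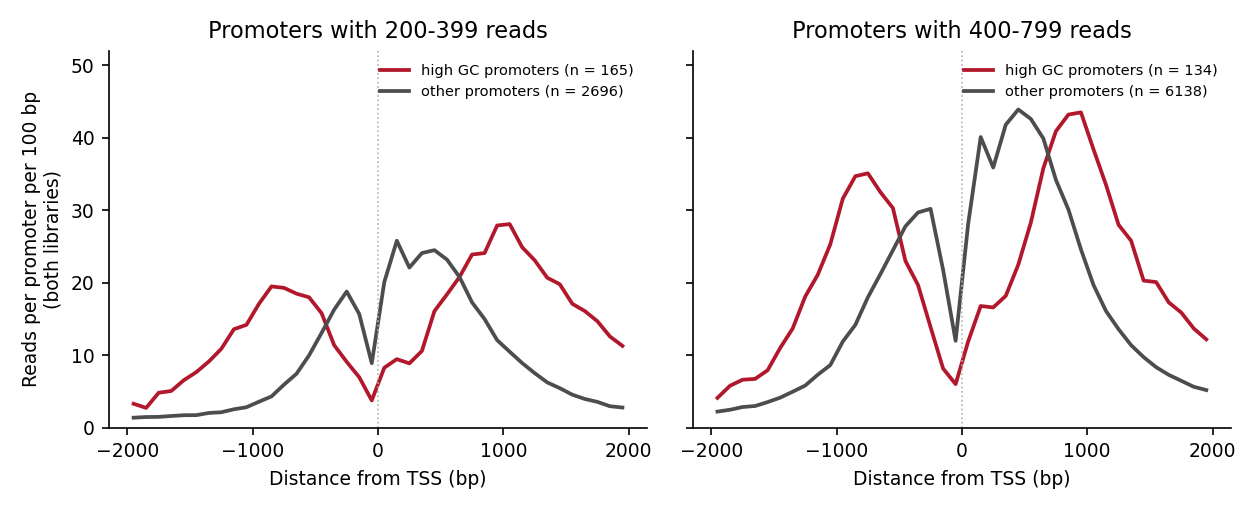
Reads of both libraries per promoter and 100 bp, by distance from the TSS in the direction of transcription, for promoters with 200 to 400 reads (left) and 400 to 800 reads (right) within 1 kb; high GC promoters are red. The red curves peak near 900 bp either side and stay low over the whole middle, while the grey curves rise right beside the TSS.

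The measure of a local dip, the read density from 150 bp before to 50 bp after the TSS over that of the flanks 200 to 350 bp before and 100 to 250 bp after it, was almost the same in members and others. It was 0.492 (0.475 to 0.509) in members and 0.495 (0.493 to 0.497) in others, and 0.441 against 0.457 at 400 to 800 reads. It was 0.474 in the knockout and 0.504 in the wild type within members, with intervals of 0.448 to 0.501 and 0.482 to 0.526. Its flanks lie inside the wide low region of the members, so it was measured again at a larger scale, a measure chosen after the profiles were seen. The density within 500 bp of the TSS over that from 500 to 1000 bp was 0.496 (0.491 to 0.502) in members and 1.23 (1.23 to 1.23) in others. It was 0.442 (0.434 to 0.450) in the knockout and 0.539 (0.531 to 0.547) in the wild type within members, against 1.14 and 1.32 within others.

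The wide low region deepened with the read level of the members, and only at 50 to 100 reads was their middle not below the outer part. At 100 to 200 reads the members' peaks were 1600 bp apart with a trough at 30.6% of the mean peak, against 400 bp and 60.9% in others. The inner over outer density was 1.10 (1.04 to 1.17) over the 64 members with 50 to 100 reads and 0.834 (0.801 to 0.869) over the 62 with 100 to 200 reads, against 2.23 in others at both levels. It was 0.483 (0.475 to 0.493) over 165 members with 200 to 400 reads and 0.441 (0.434 to 0.448) over 134 with 400 to 800, against 1.58 and 1.19 in others. Of 299 members with 200 or more reads, 268 (89.6%) had a lower density within 500 bp than beyond it, against 3043 of 8834 others with 200 to 800 reads (34.4%). It followed GC content in steps. At 400 to 800 reads the inner over outer density was 1.94 below 45% GC, 1.70 at 45 to 50%, 1.35 at 50 to 55%, 0.946 at 55 to 60%, 0.655 at 60 to 65% and 0.442 at 65 to 70%, and it was 0.374 over the 3 promoters at 70% or more. Members also had more of their reads outside the counted window. Of all reads within 2 kb of the TSS, 42.3% lay beyond 1 kb in members, against 21.1% in others. The share of reads on the downstream side within 1 kb was 53.9% in members and 62.3% in others, so the members were nearer to symmetry. The class next to them was close, with 57.3% at 60 to 65% GC against 54.4% at 65 to 70%, both at 400 to 800 reads.

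Single promoters showed the same outline. At Ehmt2, which encodes the histone methyltransferase G9a, 247 knockout and 306 wild-type reads gave an inner over outer density of 0.210, and no read lay in the central 200 bp. Git1, Vezf1 and Fbxo11 also had none there and ratios of 0.254, 0.446 and 0.0942 by that measure. In all, 29 of the 224 members with 300 or more reads and any read in the near flanks had no central read. Maz, a zinc finger factor that itself binds GC-rich DNA, had 0.0778. At the other end of the local dip measure, Fam120a, Ube2r2, Kpnb1 and Tab2 had a central density of 4.51 to 12 times that of the near flanks, yet an inner over outer density of 0.0497 to 0.341, so few reads lay in either place. Limd2 was different, with an inner over outer density of 1.67 at 709 reads.

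Reads were fewer where the local sequence was richest in GC, in members and others alike. In 100 bp tiles within 1 kb of members with 400 to 800 reads, tiles at 55 to 60% GC held 47.3 reads, tiles at 65 to 70% 26.2, tiles at 75 to 80% 9.19 and tiles at 80% or more 3.66. In others of the same read level the same tiles held 39.2, 26.0, 10.4 and 4.85 reads. The middle of the members is where such tiles are common. Within 500 bp of the TSS the mean local GC content was 73.2% in members and 59.4% in others, from 500 to 1000 bp it was 61.9% and 48.3%, and from 1 to 2 kb 48.4% and 45.3%. The part of local GC content in the low middle of the members was not tested, and no input or nucleosome library was analysed here.

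High GC promoters had fewer knockout reads than other promoters of like reads, a difference of -0.21 on the log2 scale that came to -0.01 against a ratio expected from the fragment GC content of reads at other promoters and to 0.08 against one from reads outside islands. Libraries were scaled over all marked promoters, and a ratio of 1 then stood for 0.876 knockout reads per wild-type read. The median log2 ratio of knockout over wild type was -0.30 in members (quartiles -0.49 and -0.13) and 0.01 in others, and 387 of 425 members (91.1%) lay below a ratio of 1. As raw reads, the medians were 131 knockout and 181 wild-type reads per marked member, against 219 and 246 per other marked promoter. Scaling to total reads moved the median log2 ratio of all marked promoters by -0.12 and that of members to -0.41, and scaling to reads outside islands and promoters moved them by -0.31 and to -0.61. Such scalings shift all promoters alike and leave the gap between members and others as it was. Summed over the marked members there were 56758 knockout and 76979 wild-type reads, with a ratio of 0.841 (0.832 to 0.851). Summed over the unmarked members there were 1049 and 1826 reads, with a ratio of 0.656 (0.607 to 0.708), against 0.902 (0.887 to 0.917) over other unmarked promoters.

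By the threshold of 1.5-fold, 79 members (18.6%) were lower in the knockout library and 0 were higher, while over all marked promoters 5.75% were lower and 0.788% were higher. Over all marked promoters these were 701 lower and 96 higher, and scaled to reads outside islands and promoters 2128 lower and 20 higher. The counting interval excluded a ratio of 1 for 71 of the 79, against a background of 4.89% of all marked promoters called lower with that added condition and 0.665% called higher. The ratio moved with the read level in every set, so it was compared level by level. Of the members 36 of 64 (56.2%) were lower at 50 to 100 reads, 24 of 62 (38.7%) at 100 to 200, 19 of 165 (11.5%) at 200 to 400 and 0 of 134 at 400 to 800. Of other promoters 36.7%, 20.2%, 3.04% and 0.0652% were lower at these levels. At 50 to 100 reads the median log2 ratio was -0.70 in 64 members and -0.43 in others. At 100 to 200 reads it was -0.51 and -0.29, at 200 to 400 reads -0.29 and -0.07, and at 400 to 800 reads -0.15 and 0.05. Set against the other promoters nearest in reads, each member's log2 ratio differed by a median of -0.21 (quartiles -0.36 and -0.08), and 355 of 425 members (83.5%) lay below their neighbours.

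**Figure D3:**
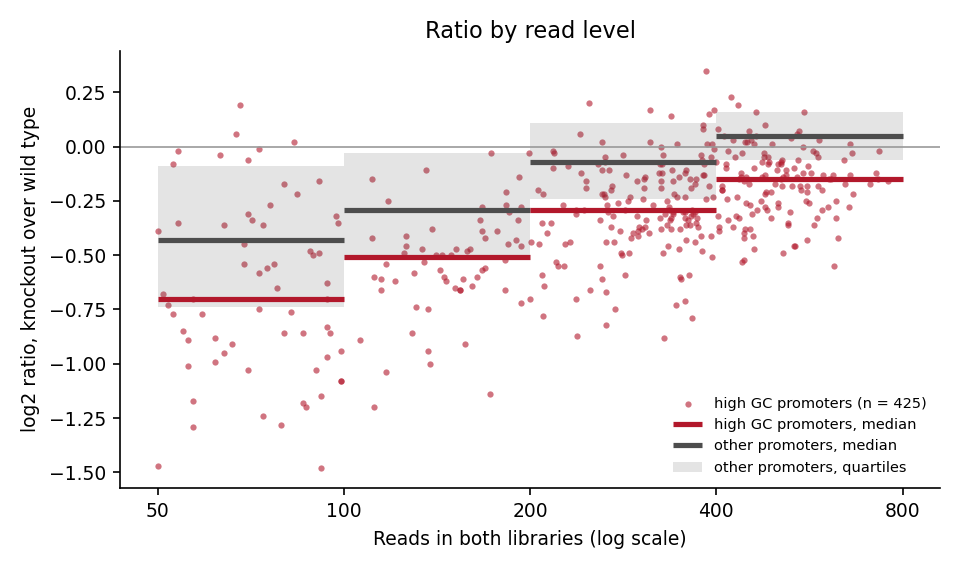
Log2 ratio of knockout over wild-type reads of each marked high GC promoter (points) against its reads in both libraries (log scale), with medians per read level as bars and the quartiles of other promoters as grey bands. With no account of fragment GC content, the red bars lie below the grey ones at all 4 levels, at -0.70, -0.51, -0.29 and -0.15 against -0.43, -0.29, -0.07 and 0.05.

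The members stood at the end of a gradient rather than apart from their neighbours in GC content. The median log2 ratio was 0.27 below 45% GC, 0.14 at 45 to 50%, 0.04 at 50 to 55%, -0.08 at 55 to 60%, -0.18 at 60 to 65%, -0.28 at 65 to 70% and -0.41 at 70% or more. At equal read levels the members and the class at 60 to 65% were close. At 400 to 800 reads the medians were -0.15 in members and -0.08 in that class, and at 50 to 100 reads -0.70 and -0.62. Within the members the median was -0.40, -0.35, -0.26 and -0.27 over the 4 classes of CpG ratio from under 0.7 to 0.9 or more, whose median GC contents were 66.0%, 66.4%, 66.8% and 68.1%. Set against others of like reads, these classes had median differences of -0.25, -0.24, -0.20 and -0.18. The 26 marked members on chromosome 7, where PA1 lies, had a median of -0.39, against -0.30 on the other chromosomes.

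The lower ratio lay in the middle of the promoters. Within 500 bp of the TSS the marked members had 17382 knockout and 26953 wild-type reads, with a ratio of 0.736 (0.722 to 0.750). From 500 to 1000 bp the ratio was 0.898 (0.886 to 0.910), and from 1 to 2 kb it was 1.12 (1.10 to 1.13). In other promoters these were 0.955, 1.11 and 1.14, so at 1 to 2 kb, where local GC content differed least, the sets had nearly the same ratio.

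**Figure D4:**
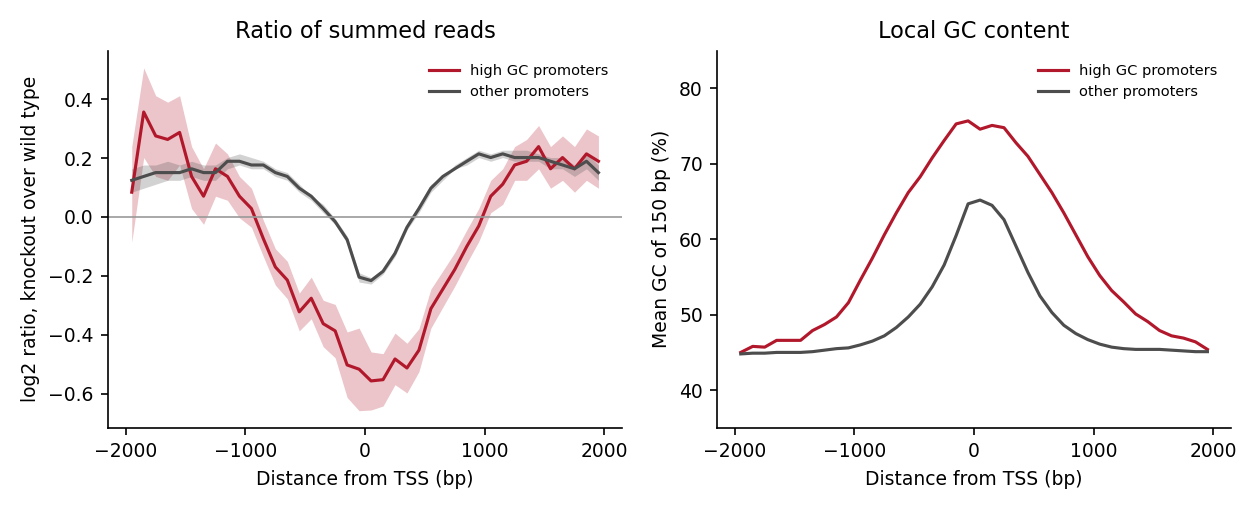
Log2 ratio of summed knockout over wild-type reads (left, with 95% counting intervals as bands) and mean GC content of 150 bp (right, percent) by distance from the TSS; high GC promoters are red and others grey. The ratio is lowest where GC content is highest in both sets, and the curves meet near 0.2 beyond 1 kb.

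The ratio fell with the GC content of the fragments at members, at other promoters and away from both. Each read was given the GC content of the 150 bp that start at its 5′ end. At 45 to 50% GC the log2 ratio was 0.29 for reads at members, 0.27 at other promoters and 0.34 for reads outside islands and over 5 kb from any TSS. At 60 to 65% it was -0.29, -0.25 and -0.42, and at 75 to 80% -0.70, -0.62 and -1.02. The mean fragment GC content at members was 60.5% in the knockout and 62.6% in the wild-type library, and outside islands it was 43.8% and 45.1%. The ratio expected for each promoter was then computed from the GC content of its own reads and the ratios of reads outside islands, an alternative added after the data were seen. Relative to it the members' median log2 ratio was 0.06, the median difference from others of like reads was 0.08 (quartiles -0.03 and 0.19), and 133 of 425 members (31.3%) lay below their neighbours. The count past 1.5-fold became 13 lower and 2 higher, with a background of 2.48% lower and 0.443% higher over all marked promoters. The interval excluded 1 for 4 of the 13, against 1.81% of all marked promoters. The same computation from reads at other promoters, whose ratio fell less steeply with GC content, was also added after the data were seen. Relative to that, the members' median log2 ratio was -0.04, the median difference from others of like reads was -0.01 (quartiles -0.12 and 0.10), and 229 of 425 members (53.9%) lay below their neighbours. Past 1.5-fold were then 21 lower and 0 higher, with a background of 3.01% lower and 0.386% higher, and the interval excluded 1 for 16 of the 21, against 2.40% of all marked promoters. The difference thus depended on which reads set the expected ratio, at 0.08 by the first and slight, at -0.01, by the second. Reads outside islands were few at high GC content. At 75 to 80% they were 160 knockout and 371 wild-type reads, against 29917 and 52638 at other promoters. With 1 library per genotype and no input analysed, a difference of the libraries in GC content cannot be told apart from genotype.

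**Figure D5:**
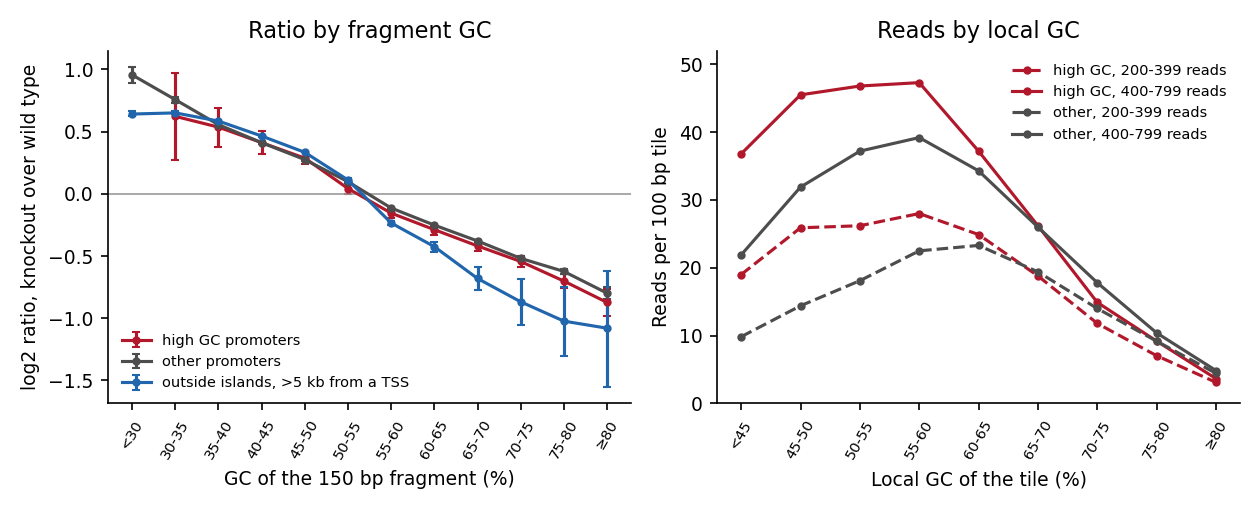
Log2 ratio of knockout over wild-type reads by GC content of the 150 bp fragment (left, with 95% counting intervals) for high GC promoters, other promoters and reads outside islands and over 5 kb from a TSS, and reads per 100 bp tile by local GC content within 1 kb (right) at 2 read levels. The 3 lines on the left all fall with GC content, from above 0 below 50% to below 0 above 55%, and at the tiles richest in GC high GC and other promoters hold alike low reads.

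The members lowest in the knockout library were mostly of low read counts. Ncs1, a neuronal calcium sensor, had 22 knockout and 70 wild-type reads, with a ratio of 0.359 (0.211 to 0.586). Zbtb46, a transcription factor known from dendritic cells, had 49 and 123 reads, with a ratio of 0.455 (0.320 to 0.638). Vav2 had the most reads among the 10 lowest, 106 and 223, and a ratio of 0.542 (0.426 to 0.687). The other 7 were Ier5l, Slc22a23, Grip1, the neuroendocrine factor Insm1, the growth factor receptor Fgfr3, the retinoid receptor Rxra and Zfp704, with 12 to 31 knockout and 38 to 81 wild-type reads and ratios of 0.360 to 0.450. Relative to the ratio expected from reads outside islands, Ncs1 was at 0.545 (0.321 to 0.890) and Zbtb46 at 0.599 (0.421 to 0.841), and the intervals of the other 8 included 1, with Vav2 at 0.855 (0.672 to 1.08). Relative to that expected from reads at other promoters, all 10 intervals lay below 1, with Ncs1 at 0.468 (0.276 to 0.765) and Vav2, under the 1.5-fold threshold, at 0.733 (0.576 to 0.928). The 10 were chosen from 425 marked members by the upper bound of the ratio from these same reads. Their intervals below 1 are therefore no separate support.

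Few members leaned to the knockout side, and none reached 1.5-fold. Those named here were chosen from 425 marked members by the lower bound of the ratio. Intervals above 1, taken from the same reads, are therefore no separate support. Wac, which takes part in histone H2B ubiquitination, had 203 knockout and 182 wild-type reads, with a ratio of 1.27 (1.04 to 1.56), and of 1.26 (1.03 to 1.55) and 1.24 (1.01 to 1.53) relative to the ratios expected from reads outside islands and at other promoters. The next 9 by the lower bound were Hipk2, a kinase that acts on p53, with 214 and 208 reads, the ubiquitin ligase scaffold Cul3 with 274 and 280, the BAF subunit Arid1b with 217 and 217, the importin Ipo5 with 229 and 234, Rest, the repressor of neuronal genes, with 197 and 200, Rufy3 with 192 and 197, the kinase Cdk13 with 155 and 157, Ankrd17 with 232 and 247, and Maz with 125 and 124. Their ratios were 1.07 to 1.17 and all 9 intervals included 1. Relative to the ratio expected from reads outside islands, Cdk13 was at 1.30 (1.03 to 1.63) and Ankrd17 at 1.23 (1.02 to 1.48), and the other 7 intervals included 1. Relative to that from reads at other promoters all 9 included 1, with Cdk13 at 1.24 (0.990 to 1.56).

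The 5 members richest in GC had GC contents of 74.3% to 77.0% and ratios of 0.567 to 0.824. Samd1, whose protein binds unmethylated CpG islands, had 69 knockout and 113 wild-type reads (ratio 0.697), Ski, a repressor of TGF-beta signalling, 88 and 177 (0.567), Arid2, a PBAF subunit, 98 and 139 (0.805), Qk, an RNA-binding protein, 70 and 97 (0.824), and Taf4a, a TFIID subunit, 97 and 162 (0.683). Ski alone passed 1.5-fold, and the intervals of Arid2 (0.615 to 1.05) and Qk (0.597 to 1.13) included 1. Relative to the ratios expected from reads outside islands the 5 were at 1.21, 0.819, 1.18, 1.23 and 0.835, and each interval included 1. Relative to those from reads at other promoters Ski was at 0.721 (0.552 to 0.936), and the other 4 intervals included 1.

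By gene list the median log2 ratio of the marked members was below 0 in each list that had any, before fragment GC content was taken into account. The activation and cytokine genes had a median log2 ratio of -0.41 in 5 members, with Socs3 at 0.714 (0.594 to 0.856) and Socs7 at 0.970 (0.762 to 1.23), and 0 of 5 passed 1.5-fold. Relative to the ratio expected from reads outside islands, Socs3 was at 0.983 (0.819 to 1.18). Of the 4 receptors 3 were lower by 1.5-fold, 2 of them, Fgfr3 and Fgfrl1, with intervals excluding 1, and of 2 marked ion channels both were, Cacna1g at 0.408 (0.210 to 0.750) and Kcng3 at 0.643 (0.458 to 0.895). Cebpb was lower at 0.509 (0.317 to 0.800) among the 5 marked developmental factors. Ccne1 was at 0.666 (0.518 to 0.852). Relative to the ratio expected from reads outside islands, the intervals of Fgfr3, Fgfrl1, Fgfr2, Cacna1g, Kcng3, Cebpb and Ccne1 all included 1. Of these, Fgfr3 at 0.639 and Cacna1g at 0.607 were still past 1.5-fold. Relative to the ratio expected from reads at other promoters, Fgfr3 at 0.565 (0.344 to 0.901) and Cacna1g at 0.521 (0.268 to 0.959) stayed lower by 1.5-fold. Fgfrl1, Fgfr2, Kcng3, Cebpb and Ccne1 did not pass, though the interval of Ccne1, at 0.777 (0.605 to 0.994), excluded 1. Mll3 was at 0.819 (0.655 to 1.02), the 3 other H3K4 genes at 0.838 to 0.930 and the 3 Polycomb genes at 0.750 to 0.853, and none of these 7 passed 1.5-fold. The receptors and ion channels had 53 to 173 reads, where 56.2% and 38.7% of members were lower below and above 100 reads, so their counts say nothing particular to a list.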

How the data were processed

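ChIP-seq reads of 1 PA1-KO and 1 PA1-WT library were used. Both deposited files list single mapped reads by position and strand, with no count per gene. Their deposited score column is 0 throughout and was not used. The submitters' processing notes name mm9 and SICER. Which aligner was run was not given in the sources used here. All deposited lines span 25 bases and positions were read as 1-based, because the letters of mismatched reads equalled the genome base in 100% of cases that way and in 17.43% and 17.66% of cases as 0-based. Libraries were amplified for 18 cycles and cut near 220 bp, per the labels' protocols.

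Reads were shifted by 75 bp towards the fragment centre and counted within 1 kb of the TSS. The minimum was 50 reads in both libraries combined, which left 12186 of 22367 promoters. Scaling used trimmed M values (TMM) over the marked promoters, with trims of 30% for ratios and 5% for levels, and gave a factor of 0.923. Ratios have exact conditional binomial 95% intervals. Low counts limit precision most below 100 reads. Islands for the reads away from promoters were built from 200 bp windows whose combined reads passed a Poisson threshold of 1e-05. An effective genome of 80% was assumed. Windows up to 200 bp apart were joined, and joined islands with 20 or more reads were kept. The sequences come from the NCBIM37 assembly, which mm9 also is. Python 3.11.15, numpy 2.4.6, pandas 2.3.3, scipy 1.17.1, numba 0.67.0 and matplotlib 3.10.9 were used, and the ratio and counting steps were tested on simulated data.

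The members and gene lists were chosen with earlier results of these data known. The members named are the 10 with the most reads, the 10 highest and 10 lowest by the interval bound nearest to a ratio of 1, the 5 richest in GC, 3 on each side of each threshold, the 4 deepest and 4 shallowest local dips at 300 or more reads, and up to 6 per list. Of the 10 with the most reads, 2 are not reported here. Hs3st4, Limd2, Maz in the account of shape, and the members without reads were named after their values were seen. Alternatives covered scaling, read minimum, window, shift, GC threshold, choice of TSS, shared windows, unique sequence and chromosomes 7, X and Y.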

Additional observations from a re-analysis of the deposited data

How the results depend on the processing

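No paired analysis was possible because each genotype has 1 library, and for the same reason no library could be left out. The members' median log2 ratio of -0.30 was -0.41 with total reads scaling and -0.61 when scaled to reads outside islands and promoters, where 229 members in place of 79 were lower by 1.5-fold. A 500 bp window either side gave a median of -0.35, a median difference from promoters of like reads of -0.15, a marked share of 59.1% and 1 member higher. A 2 kb window either side gave -0.17, -0.16, 80.3% and 1. A minimum of 20 reads gave a share of 86.6% and 1 higher, and a minimum of 100 reads gave 63.4% and 45 lower, by construction. GC of 60% or more gave a median of -0.21, a share of 78.3%, 274 lower, 2 higher and an inner over outer density of 0.705. GC of 70% or more gave -0.41, a difference of -0.28, 69.9%, 16 lower and 0.421. The local dip was 0.642 without the fragment shift, 0.322 at the TSS farthest upstream and 0.625 with a central window of 100 bp either side, and the inner over outer density was 0.503 without the shift and 0.487 without shared windows. The cause of these shifts was not tested. The expected ratio from fragment GC, an alternative added after seeing the data like all those for the inner over outer density, reversed the median to 0.06 and the difference to 0.08 and gave 13 lower and 2 higher when taken from reads away from promoters. Taken from reads at other promoters, also added after seeing the data, it gave -0.04, -0.01 and 21 lower. Leaving out chromosomes X, Y and 7, or promoters with under 90% unique sequence, moved none of these results beyond the interval or 1.5-fold. Of 1052 recomputed ratios of 74 genes, 960 stayed within their counting interval, 92 moved beyond it and 0 reversed. Depth limits single members: Gpc1, with 51 reads, had a ratio of 0.623 with an interval of 0.330 to 1.14.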

Other observations

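Some members stood out in shape or mappability and were chosen after their values were seen. Igf2 and Cdkn1c, imprinted genes of chromosome 7, had an inner over outer density of 12.2 and 8.74, so their few reads lay near the TSS, unlike those of most members. Igf2 had 24 knockout and 29 wild-type reads and Cdkn1c 18 and 21. Members with few reads leaned inward more than the rest, with a median of 1.18 at 50 to 100 reads. Kcnk12, an ion channel with 48 reads, had 8.59, so the trait was not particular to the imprinted genes. Fcgr3, which encodes an Fc receptor for IgG, had 54 reads although 6.02% of the 25-base words of its window are unique; where in the genome its reads arose was not tested.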
